A study of Mus musculus with 21 samples.

Results

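The mitochondrial ribosome is assembled from proteins that are all encoded in the nucleus, and the transcripts of these proteins were followed in left ventricles of mice with and without a hypertrophic cardiomyopathy mutation. Members were chosen by symbol and by measured level: genes named Mrpl or Mrps followed by digits only, with a mean count of at least 50 over the 21 mice. Of 55450 genes in the count table, 75 carried such a symbol and 74 were kept, 48 Mrpl genes, named for the large subunit, and 26 Mrps genes, named for the small subunit, spread over 17 chromosomes. The gene just outside was Mrpl53, with a mean count of 0.238, and the genes just inside were Mrpl23 with 88.6 and Mrps33 with 361.7. Only 95 of the 790 annotated exon bases of Mrpl53 were free of another gene on the same strand. All 74 members passed the filter on low counts and were tested.

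All mice were males of the 129S6/SvEv strain. R403Q mice had the genotype Myh6+/R404Q (R403Q), a knocked-in missense change in 1 copy of the cardiac myosin heavy chain gene, and the counts do not separate the mutant from the normal copy. The data cover 5 WT-CD mice (wild type, control diet), 7 R403Q-CD mice, 5 WT-EMPA mice and 4 R403Q-EMPA mice, EMPA being the control diet with 0.15 mg of empagliflozin, a sodium-glucose cotransporter inhibitor, per g. Diets started at 9 to 10 weeks of age, and the series gives an age of 12 weeks at RNA sampling while the sample labels give 16 weeks of diet. The study's paper also puts the RNA mice at 12 weeks of age, early in the treatment, and gives 16 weeks of diet for its later measurements. The sample titles carry a number shared by several mice, and the labels do not say what it marks. Of the 7 numbers none was found on both diets, so that what it marks and diet cannot be told apart, whereas 6 of the 7 were shared by both genotypes. Mice with the same number are called a number group here.

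Mitochondrial ribosomes translate the proteins encoded by mitochondrial DNA, subunits of the respiratory chain and ATP synthase, on which the beating heart depends for its energy. Their small subunit reads the messenger RNA, and their large subunit joins the amino acids. Many of their proteins have bacterial homologues, the others were gained in mitochondria, and the ribosomal RNA comes from mitochondrial DNA. Recessive variants of several of these genes, among them MRPL3, MRPL44, MRPS14 and MRPS22, are known in infants with hypertrophic cardiomyopathy. Promoters of such genes are known for sites of the transcription factors NRF1, GABPA (an ETS factor) and YY1.

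The sequence just before the start of the members is shown first, as a description. Whether it bears on the members' levels across mice was not tested. In RefSeq windows of 300 bases, 250 before and 50 after the start (build GRCm38.p6), 65 of the 74 members had an entry. The NRF1 letters GCGCATGCG were found on either strand in 6 members (9.23%) and in 1.95% of 27025 genes with a window. The ETS letters CCGGAAG were found in 22 members (33.8%) and in 9.93% of all genes, and the YY1 letters AAGATGGC in 11 members (16.9%) and in 3.19% of all genes. At least 1 of these 3 was present in 34 members (52.3%) and in 14.1% of all genes. The ETS letters end as the YY1 letters begin, so that matches of these can share bases, and a match is a description of the letters, not a measured site. Below are the parts of these windows outside any annotated exon, with matches in capitals, for Mrpl22, which held both NRF1 and ETS letters (chr11:58171414-58171660, plus strand), for Mrpl10 with NRF1 letters (chr11:97041408-97041559, plus strand), for Mrps22 with ETS letters 11 bases before the start (chr9:98601680-98601929, minus strand), and for Mrpl44, the member with the smallest adjusted P for genotype, which held none of the 3 (chr1:79775768-79775959, plus strand). For Mrpl32, whose window held NRF1 letters at 2 places, a stretch of 30 bases around those 87 bases before the RefSeq start is shown, and those 23 bases before it are not. Unlike the other stretches it lies within the first exon of a longer GENCODE transcript of the gene (chr13:14613105-14613134, minus strand).
Mrpl22: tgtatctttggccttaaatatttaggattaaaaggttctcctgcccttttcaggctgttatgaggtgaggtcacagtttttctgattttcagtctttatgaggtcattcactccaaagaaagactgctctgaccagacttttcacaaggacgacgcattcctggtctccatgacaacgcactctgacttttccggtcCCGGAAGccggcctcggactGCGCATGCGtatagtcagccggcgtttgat
Mrpl10: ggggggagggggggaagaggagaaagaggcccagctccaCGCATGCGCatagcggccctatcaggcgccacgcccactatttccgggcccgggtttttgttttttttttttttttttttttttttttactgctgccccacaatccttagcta
Mrps22: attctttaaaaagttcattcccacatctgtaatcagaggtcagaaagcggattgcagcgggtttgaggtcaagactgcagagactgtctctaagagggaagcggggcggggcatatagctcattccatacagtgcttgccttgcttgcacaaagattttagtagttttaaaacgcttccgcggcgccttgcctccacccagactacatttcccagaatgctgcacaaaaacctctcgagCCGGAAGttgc
Mrpl44: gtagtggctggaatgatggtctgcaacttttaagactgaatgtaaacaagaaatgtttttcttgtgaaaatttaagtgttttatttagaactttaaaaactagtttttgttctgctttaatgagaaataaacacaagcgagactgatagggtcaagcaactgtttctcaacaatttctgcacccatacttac
Mrpl32: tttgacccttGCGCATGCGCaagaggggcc

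Libraries held between 23491535 and 43539684 counted read pairs. The library of R403Q-CD mouse 2 stood apart. Its summed fibroblast markers (7 of 7 detected) were at 5990 CPM (counts scaled to a common library total) against 1070 to 3018 in the other 20 mice, its cardiomyocyte markers (8 of 8) at 66486 against 86458 to 115106, and the stress gene Nppa at 10996 against 238.2 to 3826. R403Q-CD mouse 5 came next, with Nppa at 3826 CPM, fibroblast markers at 3018 and cardiomyocyte markers at 86458, and its members had a median log2 deviation of -0.12. Cardiomyocyte transcripts were abundant in all 21 libraries. Atrial markers (3 of 3) were at 608 CPM in R403Q-CD mouse 2 and 2.12 to 260.3 in the others. Of 4 fat markers Ucp1 was at 0 in every group, Adipoq and Plin1 had group means of 0.916 to 2.20 CPM and Cidea of 19.9 to 23.8, and their sum was 36.4 CPM in R403Q-CD mouse 2 and 20.2 to 31.5 in the others. In bulk tissue, fewer cells of a type and less RNA per cell cannot be told apart.

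Members differed widely in level. Per kb of the principal annotated transcript, the median member in WT-CD was at 36.3 CPM, with 41.7 for the large and 24.1 for the small subunit. In the large subunit Mrpl42 (394 CPM per kb), Mrpl30 (228) and Mrpl33 (154) were highest, and Mrpl19 (6.39), Mrpl17 (5.71) and Mrpl23 (4.05) lowest. In the small subunit Mrps21 (191), Mrps23 (95.0) and Mrps9 (80.9) were highest, and Mrps5 (8.81), Mrps26 (7.56) and Mrps25 (6.43) lowest. The order rested on the transcript model: over all annotated exon bases, Mrpl42, Mrpl30 and Mrpl33 ranked 5, 10 and 38 among the large subunit genes, and Mrpl12, the stalk protein, ranked 1. Mrps21 and Mrps23 ranked 1 and 2 by either length. Over the 21 mice each member varied little, with a coefficient of variation from 6.56% to 16.2% and a median of 11.7%.

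The members moved together from mouse to mouse, in both subunits and in every group. Summed over the 48 large subunit genes, WT-CD mice had 3115, 2966, 3464, 3288 and 3194 CPM, a mean of 3205 ± 187 (SD, n = 5). R403Q-CD mice ranged from 2451 to 3731 around a median of 3166, with a mean of 3103 ± 392 (SD, n = 7). WT-EMPA mice had 2718, 2875, 3228, 3147 and 2754 CPM (2944 ± 231, n = 5), and R403Q-EMPA mice 3586, 3141, 3031 and 2901 CPM (3165 ± 298, n = 4). All 4 groups overlapped, and R403Q-CD held both the lowest and the highest mouse of the study.

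The Mrps sum followed the Mrpl sum closely, mouse by mouse. Summed over the 26 Mrps genes, it stood at 1323 ± 84.4 CPM in WT-CD (n = 5), 1274 ± 155 in R403Q-CD (n = 7), 1218 ± 82.4 in WT-EMPA (n = 5) and 1307 ± 111 in R403Q-EMPA (n = 4; all SD). Small over large lay between 0.405 and 0.425 in all 21 mice, while the large subunit sum itself spanned 2451 to 3731 CPM. The split is by symbol. With Mrps30, a large subunit protein, counted as large and Mrps36, which belongs to another complex, left out, the ratio lay between 0.369 and 0.385.

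**Figure D1:**
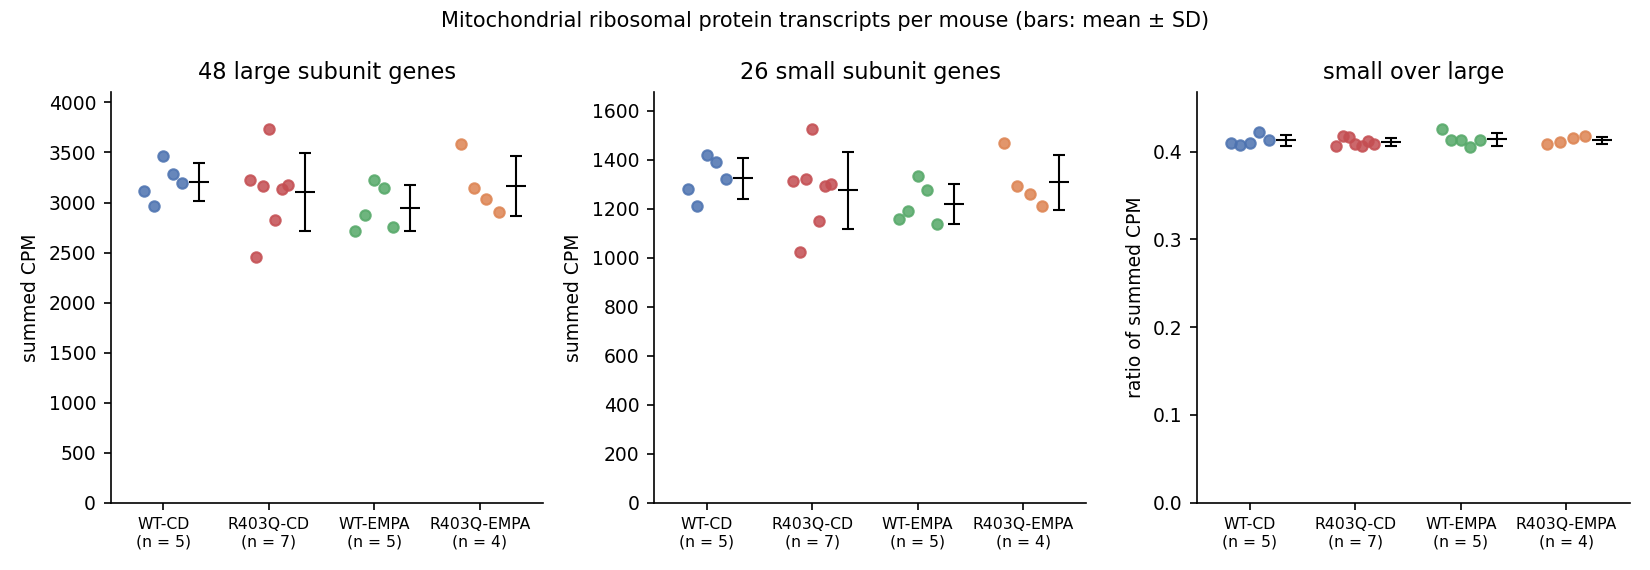
Summed CPM of the 48 large subunit genes (left), of the 26 small subunit genes (middle) and their ratio (right) for each mouse, in 4 groups; points are mice and bars are the mean ± SD. The sums spread within each group and the groups overlap, while the ratio stays between 0.405 and 0.425.

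Gene by gene the picture was the same. R403Q-CD mouse 2 was the lowest of 21 mice for 42 of the 74 members and WT-EMPA mouse 1 for 23, while R403Q-CD mouse 4 was the highest for 38 and R403Q-EMPA mouse 1 for 16. The median log2 deviation of the 74 members from their own means was -0.32 in R403Q-CD mouse 2, -0.18 in WT-EMPA mouse 5 and -0.16 in WT-EMPA mouse 1, against 0.26 in R403Q-CD mouse 4 and 0.21 in R403Q-EMPA mouse 1. The median over all tested genes stayed between -0.01 and 0.02 in every mouse. A member's SD over the 21 mice had a median of 0.17 on the log2 scale, and 0.10 once the median deviation of each mouse was taken off; it became smaller for 66 of 74 members. Members with a bacterial homologue (44) and those particular to mitochondria (29, leaving out Mrps36) deviated by -0.28 and -0.33 in R403Q-CD mouse 2 and by 0.27 and 0.24 in R403Q-CD mouse 4. They were further apart in WT-EMPA mouse 1 (-0.19 and -0.10) and R403Q-EMPA mouse 1 (0.22 and 0.16).

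**Figure D2:**
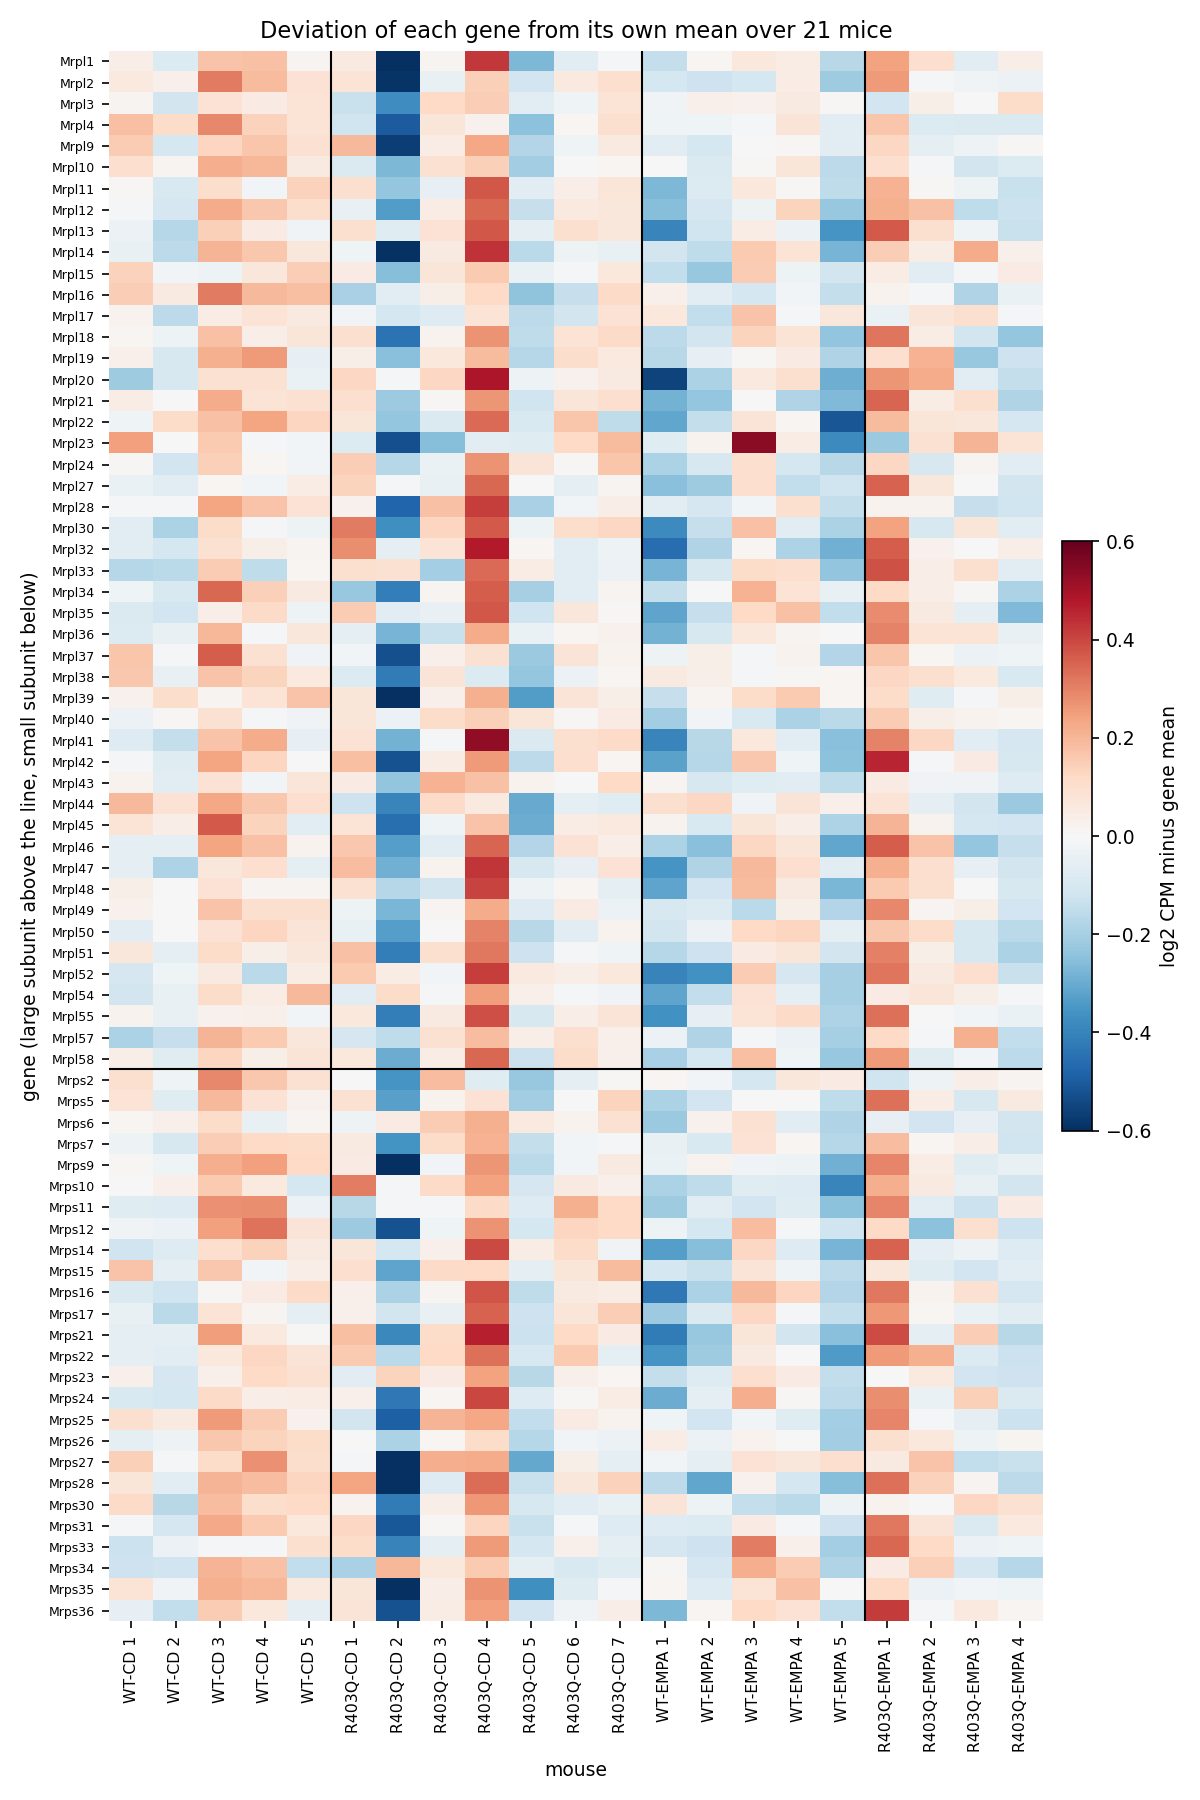
Each row is a gene, each column a mouse, and the colour is the log2 CPM minus the gene's own mean over 21 mice, with values beyond 0.6 in either direction given the end colour. R403Q-CD mouse 2 is low and R403Q-CD mouse 4 high across most rows of both subunits.

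The subunits of respiratory complex I, a nuclear gene set that does not take part in translation, deviated with the members in most mice. Their median deviation (36 genes) was -0.49 in R403Q-CD mouse 2, 0.40 in R403Q-CD mouse 4, 0.33 in R403Q-EMPA mouse 1 and -0.30 in WT-EMPA mouse 1. The 10 mitochondrial translation factors were also low in R403Q-CD mouse 2 (-0.51) but not in WT-EMPA mouse 1 (0.03). The 78 cytosolic ribosomal protein genes tested were not low in R403Q-CD mouse 2, where their median deviation was 0.04. Like the members they were high in R403Q-CD mouse 4 (0.33) and R403Q-EMPA mouse 1 (0.30), and they were lowest in WT-EMPA mouse 1 (-0.44). In WT-CD mouse 4 they were at -0.15 and the members at 0.10. All these values come from the same libraries and share their depth and scaling.

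**Figure D3:**
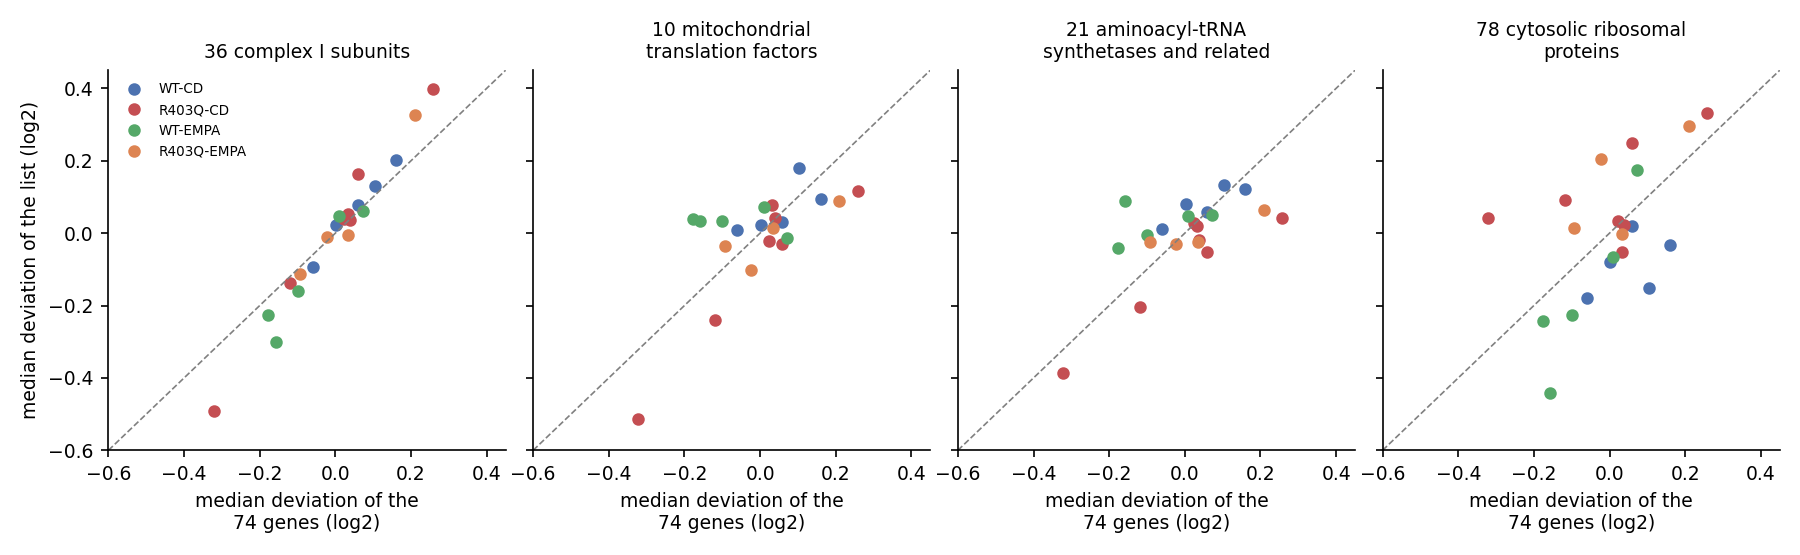
Each point is a mouse: the median log2 deviation of the 74 members (horizontal) against that of 4 other gene lists (vertical), with the dashed line marking equal values and colours the groups. Complex I subunits follow the members but lie further from 0 at both ends (-0.49 against -0.32 in R403Q-CD mouse 2, 0.40 against 0.26 in R403Q-CD mouse 4), and cytosolic ribosomal proteins scatter about it.

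Genotype was compared first over both diets together, where 3 of the 74 members passed the test, Mrpl40 and Mrpl32 higher and Mrpl44 lower in R403Q hearts. All 3 encode large subunit proteins, and none of the 26 Mrps genes passed. The count was 8 when libraries were scaled to total counts alone, 4 by DESeq2, 2 by limma, 1 without the filter and 0 to 4 on leaving out single mice. With the number in the sample titles as a block over all 21 mice no member passed by edgeR (9 with an unadjusted P under 0.05), where 944 of the 17309 genes did, and Mrpl44, Mrpl40 and Mrpl32 had log2 differences of -0.21, 0.14 and 0.23 with adjusted P = 0.0520, 0.0760 and 0.101. Without R403Q-CD mice 2 and 5 these 3 members passed (adjusted P = 0.0258, 0.0405 and 0.0369). Across all genes 10.9% were called in this comparison, 6.3% higher and 4.58% lower, beside 3 of 74 members. The median log2 fold change of the members was 0.03, beside 0.01 over all genes, and 47 of 74 were above 0 (60 when libraries were scaled to their total counts alone). On leaving out single mice the median lay between 0.0016, without R403Q-EMPA mouse 1, and 0.06. Of the members, 12.2% had an unadjusted P under 0.05, while 5026 of the 17309 genes had one.

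Mrpl44 encodes a large subunit protein of the ribonuclease III fold, on chr1:79776018-79781445 of GRCm38, plus strand. It stood at 58.9, 54.6, 60.6, 57.7 and 55.2 CPM in WT-CD, and at 39.2 to 55.7 around a median of 49.0 in R403Q-CD. WT-EMPA mice had 54.96, 56.1, 50.8, 54.4 and 52.5 CPM, and R403Q-EMPA mice 54.4, 49.6, 47.7 and 44.1. On either diet the R403Q mice were mostly below the wild-type mice, with overlap. Mrpl44 fell by 0.20 on the log2 scale (SE 0.06; edgeR, adjusted P = 0.0304), and it was lower in R403Q in 6 of the 6 number groups that held both genotypes, by 0.07 to 0.55. Against the median of all members in the same mouse, Mrpl44 lay between 0.04 and 0.19 in WT-CD and between -0.20 and 0.08 in R403Q-CD. Without R403Q-CD mouse 2 the difference was -0.18 (adjusted P = 0.0197), but leaving out 7 of the 21 mice in turn (WT-CD 1, 3 and 4, WT-EMPA 1 and 2, R403Q-EMPA 3 and 4) brought the adjusted P to between 0.0506 and 0.0551.

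Mrpl40 encodes a large subunit protein particular to mitochondria, on chr16:18872018-18876862, minus strand. WT-CD mice had 27.6, 28.4, 30.04, 28.1 and 27.8 CPM, and R403Q-CD mice 27.5 to 31.2 around a median of 29.7. WT-EMPA mice had 24.4, 27.9, 26.5, 24.7 and 25.2 CPM, all below the 31.4, 28.9, 28.6 and 28.5 of the R403Q-EMPA mice. The groups overlapped on the control diet and not with empagliflozin, and the interaction did not pass the test (0.14, SE 0.07; edgeR, adjusted P = 0.9991). Mrpl40 rose by 0.12 (SE 0.04; edgeR, adjusted P = 0.0397) over both diets and was higher in R403Q in 5 of 6 number groups. DESeq2, limma and scaling to total counts alone also called it, and without the filter on low counts it was not called (adjusted P = 0.1512). The call was lost on leaving out any of 12 of the 21 mice (highest adjusted P = 0.0999, without R403Q-EMPA mouse 1). Mrpl40 was called without WT-CD 3, WT-EMPA 2 and 3, R403Q-CD 1, 2, 3, 6 and 7 and R403Q-EMPA 4.

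Mrpl32 encodes a large subunit protein with a bacterial homologue, matured by the m-AAA protease of the inner membrane, on chr13:14608184-14613165, minus strand. WT-CD mice had 38.8, 37.7, 43.2, 41.6 and 41.0 CPM, and R403Q-CD mice 38.8 to 56.5 around a median of 40.9. WT-EMPA mice had 29.6, 35.8, 40.9, 35.7 and 33.2 CPM, and R403Q-EMPA mice 52.3, 41.4, 40.6 and 41.8. Most R403Q-CD mice lay in the range of WT-CD, and R403Q-CD mice 1 and 4 (49.2 and 56.5 CPM) above it. Mrpl32 rose by 0.22 (SE 0.07; edgeR, adjusted P = 0.0494), just inside the threshold, and was higher in R403Q in 4 of 6 number groups. DESeq2 and scaling to total counts alone also called it, while limma and the fit without the filter did not. Its call held on leaving out only 5 of the 21 mice (WT-EMPA 3 and R403Q-CD 2, 3, 6 and 7), and the adjusted P reached 0.133 without R403Q-EMPA mouse 1. Mrpl52 was next, 0.21 (SE 0.07; adjusted P = 0.0625).

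**Figure D4:**
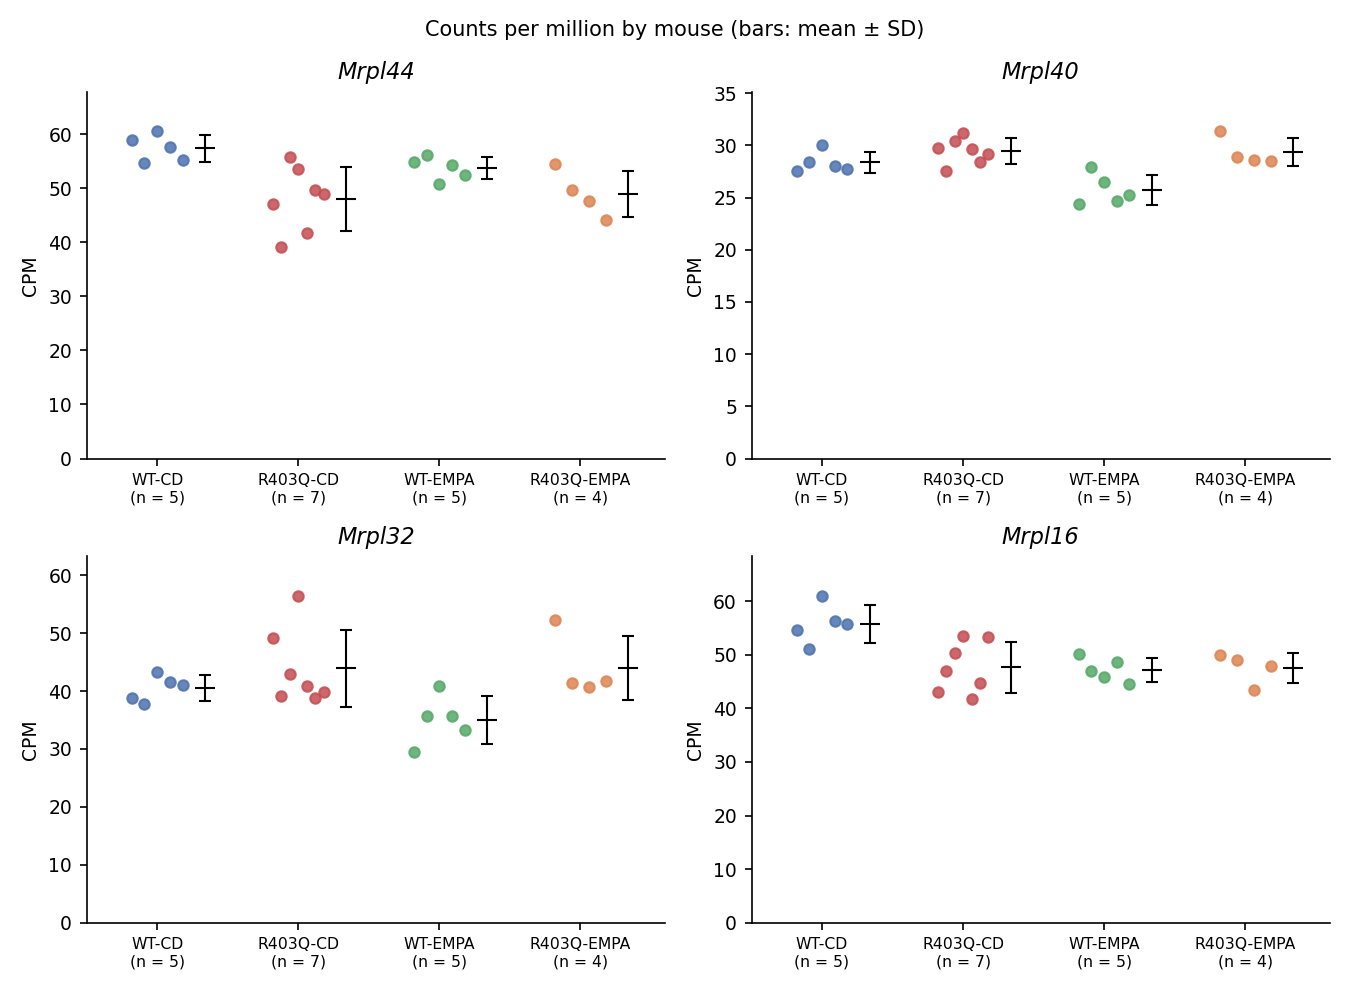
CPM of Mrpl44, Mrpl40, Mrpl32 and Mrpl16 in each mouse of the 4 groups, with axes from 0; bars are the mean ± SD. Mrpl44 is lower in R403Q than in wild-type mice on either diet with overlap, Mrpl40 of WT-EMPA lies wholly below R403Q-EMPA, and Mrpl16 of WT-EMPA wholly below WT-CD.

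On the control diet alone, no member differed between R403Q-CD and WT-CD by edgeR (adjusted P under 0.05), where 1.44% of all genes were called. An unadjusted P under 0.05 was found for 7 members (9.46%, against 20.9% of all genes). DESeq2 called 2 members, Mrpl44 and Mrpl16, both lower, and limma none. The median log2 fold change of the members was -0.05, beside 0.01 over all genes. This sign rested on scaling: 28 of 74 members were above 0 with TMM factors, and 42, with a median of 0.01, when libraries were scaled to total counts alone. Mrpl44 differed by -0.26 (SE 0.07; adjusted P = 0.0671), Mrpl16 by -0.23 (SE 0.07; adjusted P = 0.0702) and Mrpl4 by -0.24 (SE 0.08; adjusted P = 0.103), all by edgeR. Mrpl44 and Mrpl16 were called once R403Q-CD mouse 3 was left out (adjusted P = 0.0246 and 0.0414), and Mrpl16 also without R403Q-CD mouse 7.

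Mrpl16, whose bacterial homologue lies near the site of peptide bond formation, had 54.6, 51.1, 61.1, 56.3 and 55.8 CPM in WT-CD and 41.7 to 53.5 around a median of 47.0 in R403Q-CD. Mrpl4, whose homologue lines the tunnel through which the new chain leaves, had 94.2, 89.6, 101.3, 91.5 and 87.8 CPM in WT-CD and 58.8 to 88.7 around a median of 83.6 in R403Q-CD. For neither gene were the groups apart, since the highest R403Q-CD mice (53.5 and 88.7 CPM) lay above the lowest WT-CD mice (51.1 and 87.8 CPM). No member had groups without overlap in this comparison, against 2.12% of all genes. Within the 4 control diet number groups, the median member differed between R403Q and WT by 0.06, -0.37, 0.04 and -0.08, and the number group at -0.37 was that of R403Q-CD mouse 2. Without that mouse the median over members was -0.02, and without R403Q-CD mice 2 and 5 it was 0.02, with 45 of 74 members above 0 and none called.

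With empagliflozin, no member differed between R403Q-EMPA and WT-EMPA by edgeR, where 0.0578% of all genes were called, nor by DESeq2 or limma. The members nevertheless lay mostly on the positive side: 58 of 74 were higher in R403Q-EMPA, with a median of 0.12, beside 51.7% of all genes and a median of 0.01. With libraries scaled to total counts alone 73 were higher. On leaving out single mice the median lay between 0.05, without R403Q-EMPA mouse 1, and 0.15. Complex I subunits lay on the same side (30 of 36 above 0, median 0.17). An unadjusted P under 0.05 was found for 8 members (10.8%, against 14.7% of all genes). Mrpl40 differed by 0.19 (SE 0.06; adjusted P = 0.1425), Mrpl32 by 0.33 (SE 0.11; adjusted P = 0.1826) and Mrpl21 by 0.28 (SE 0.10; adjusted P = 0.1979). Mrpl40 was the only member whose groups did not overlap, against 6.77% of all genes. In the 2 empagliflozin number groups with both genotypes the median member differed by 0.11 and 0.12. The median deviation of the members per mouse overlapped, from -0.09 to 0.21 in R403Q-EMPA and from -0.18 to 0.07 in WT-EMPA. The members of a mouse are not independent.

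In wild-type mice nearly every member was lower with empagliflozin, each by little. None passed the test by edgeR in WT-EMPA against WT-CD, where 0.0289% of all genes were called, nor by DESeq2 or limma. Of the 74 members 71 were below 0, with a median of -0.12, beside 50.9% of all genes and a median of -0.0036. Mrpl17, Mrps33 and Mrps34 were the 3 above 0. An unadjusted P under 0.05 was found for 9 (12.2%, against 11.02% of all genes). Leaving out each mouse in turn left 0 to 12 members above 0, the most without WT-EMPA mouse 1, and the median between -0.15 and -0.09. Complex I subunits lay on the same side (34 of 36 below 0, median -0.17). The median deviation of the members per mouse overlapped, from -0.18 to 0.07 in WT-EMPA and from -0.06 to 0.16 in WT-CD. The 74 members move together within a mouse, so that the count of 71 is not one of independent genes. Blood markers, summed (5 of 5 tested), were at 1029 ± 221 CPM in WT-CD and 1554 ± 337 in WT-EMPA, smooth muscle and pericyte markers (5 of 5) at 1066 ± 146 and 922 ± 128, and macrophage markers (5 of 5) at 119 ± 12.7 and 116 ± 18.2 (SD, n = 5 each). Their part in the members' shift was not tested. The number in the titles and diet cannot be told apart here.

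Mrpl16 was 50.2, 46.9, 45.8, 48.6 and 44.5 CPM in WT-EMPA, all below the 5 WT-CD mice, and differed by -0.24 (SE 0.07; edgeR, adjusted P = 0.2429). Mrpl21, of a bacterial homologue in the large subunit, had 31.7, 32.8, 38.7, 34.1 and 32.1 CPM in WT-EMPA and 39.8, 38.6, 45.1, 40.9 and 41.1 in WT-CD, with a bare overlap and a difference of -0.28 (SE 0.09; edgeR, adjusted P = 0.2763). Mrpl40 differed by -0.14 (SE 0.05; edgeR, adjusted P = 0.3238). Mrpl16, Mrpl4 and Mrps25 had groups without overlap, all lower in WT-EMPA, against 3.45% of all genes.

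In R403Q mice the members lay on either side of 0 with the same diet. None passed by edgeR, DESeq2 or limma in R403Q-EMPA against R403Q-CD, where 0.0116% of all genes were called, and only 2 had an unadjusted P under 0.05 (2.7%, against 13.4% of all genes). The median was 0.03, beside -0.0036 over all genes, and 50 of 74 were above 0 (41 when scaled to total counts alone). Its direction depended on single mice: the median was -0.02 without R403Q-CD mouse 2, with 26 members above 0, -0.05 without R403Q-CD mice 2 and 5, with 14 above 0, and -0.03 without R403Q-EMPA mouse 1, with 22 above 0. It was 0.08 without R403Q-CD mouse 4, with 67 above 0. Mrps6, of a bacterial homologue in the small subunit, had 16.4, 15.6, 16.4 and 15.7 CPM in R403Q-EMPA, all below the 16.6 to 19.6 of R403Q-CD. It differed by -0.16 (SE 0.06; edgeR, adjusted P = 0.2773) and was the only member without overlap, against 1.62% of all genes. Its mean count of 565.6 was among the lowest of the members, and 80.1% of its exon bases were free of other genes on the same strand. Mrpl38 (0.15, SE 0.07; edgeR, adjusted P = 0.3708) and Mrpl36 (0.14, SE 0.09; edgeR, adjusted P = 0.4938) followed.

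The interaction of genotype and diet asks whether empagliflozin acted differently in the 2 genotypes. It was called for no gene at all, 0% of 17309, by edgeR, and for no member by DESeq2 or limma. An unadjusted P under 0.05 was found for 7 members and 567 of all genes (9.46% and 3.28%). For 70 of 74 members the diet difference was more positive in R403Q than in WT, with a median of 0.15, beside -0.0006 over all genes, and the count lay between 63 and 73 when single mice were left out. The median then lay between 0.09, without R403Q-EMPA mouse 1, and 0.19, without R403Q-CD mouse 4. Without R403Q-CD mice 2 and 5 it was 0.08, with 58 of 74 above 0. Complex I subunits lay on the same side, 36 of 36 above 0 with a median of 0.20. This is the same data as the comparisons above, which share their control groups. Since members move together within a mouse, the count of 70 is not one of independent genes. The leading members were Mrpl21 (0.33, SE 0.13), Mrpl16 (0.24, SE 0.10) and Mrpl49 (0.25, SE 0.11), each with an adjusted P of 0.9991 by edgeR.

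Averaged over genotypes, no member passed the test of diet by edgeR, DESeq2 or limma, where 2.91% of all genes were called. An unadjusted P under 0.05 was found for 3 members (4.05%, against 20.1% of all genes). Mrps6 differed by -0.13 (SE 0.05; adjusted P = 0.1209), Mrpl16 by -0.12 (SE 0.05; adjusted P = 0.1728) and Mrps10 by -0.13 (SE 0.06; adjusted P = 0.2047), all by edgeR. Members above 0 numbered 15 of 74, with a median of -0.05, which lay between -0.09 (without R403Q-EMPA mouse 1) and -0.03 (without R403Q-EMPA mouse 4) on leaving out single mice.

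**Figure D5:**
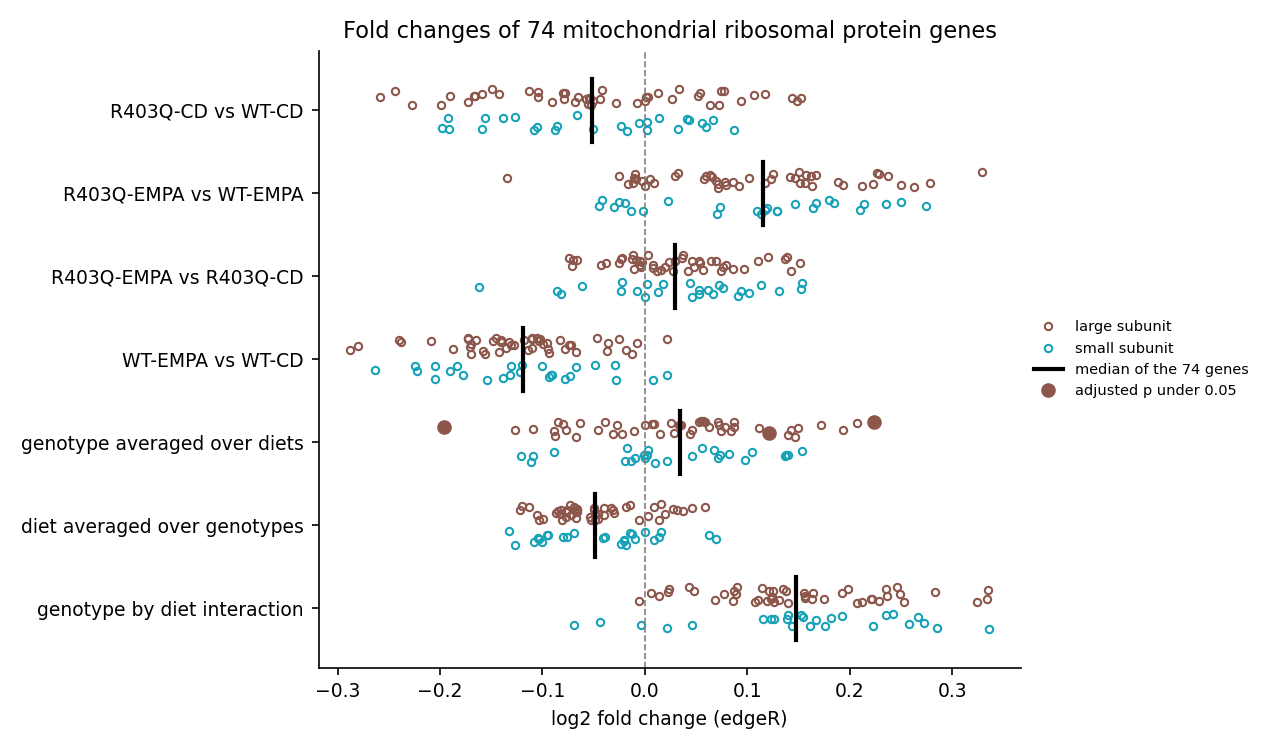
Log2 fold changes of the 74 genes in 7 comparisons from the edgeR fit, large subunit above and small subunit below in each row; filled points passed an adjusted P of 0.05 and the black bar is the median. The median lies at -0.12 for WT-EMPA against WT-CD and at 0.12 for R403Q-EMPA against WT-EMPA, and the 3 filled points belong to the genotype comparison over both diets.

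Of the 4 members whose human counterparts are linked to cardiomyopathy, Mrpl44 alone passed the genotype test, which called 10.9% of all genes. Over both diets the genotype difference was -0.03 (SE 0.05; adjusted P = 0.7371) for Mrpl3, 0.14 (SE 0.07; adjusted P = 0.2058) for Mrps14 and 0.14 (SE 0.07; adjusted P = 0.1992) for Mrps22, by edgeR. Mrpl3 averaged 66.4 ± 3.62 CPM in WT-CD (n = 5), 64.0 ± 7.65 in R403Q-CD (n = 7), 66.0 ± 1.30 in WT-EMPA (n = 5) and 65.6 ± 4.19 in R403Q-EMPA (n = 4). With total counts alone as the scale its difference changed sign, to 0.03. Mrps14 was highest in R403Q-CD mouse 4 (59.2 CPM) and R403Q-EMPA mouse 1 (57.6), the mice that were high for most members.

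Mrps30 and Mrps36 carry misleading names. Mrps30 is a protein of the large subunit, and Mrps36 is now known as a subunit of the oxoglutarate dehydrogenase complex of the citric acid cycle. Mrps30 differed by 0.00 (SE 0.06; edgeR, adjusted P = 0.985) between genotypes over both diets, and Mrps36 by 0.07 (SE 0.08; edgeR, adjusted P = 0.5711). With or without both, the median of the small subunit genes was 0.02.

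A further 8 mitochondrial ribosomal proteins have symbols outside the pattern, and 1 of them, Mrps18c of the small subunit, passed the genotype test over both diets (0.24, SE 0.08; edgeR, adjusted P = 0.0466), a share near the 10.9% of all genes called. It averaged 20.97 ± 1.23 CPM in WT-CD (n = 5), 23.7 ± 3.43 in R403Q-CD (n = 7), 18.2 ± 2.49 in WT-EMPA (n = 5) and 22.6 ± 3.12 in R403Q-EMPA (n = 4), and its call was lost on leaving out any of 13 mice and with the title number as a block (adjusted P = 0.1001). The small subunit proteins Dap3 (-0.07, SE 0.07) and Ptcd3 (-0.08, SE 0.08) did not pass, with adjusted P = 0.4875 and 0.5117 by edgeR.

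Genes that serve the mitochondrial ribosome were compared in the same way. Of 21 aminoacyl-tRNA synthetases and related enzymes, which charge the transfer RNAs, 2 fell and none rose over both diets, and 20 were below 0 with a median of -0.11. Of all genes 10.9% were called here in either direction, which is near the share of the synthetases. Both synthetase calls were lower, where 4.58% of all genes were called lower, and 47.2% of all genes were below 0. Mars2, for methionine, fell by 0.22 (SE 0.06; edgeR, adjusted P = 0.0316), and Iars2, for isoleucine, fell by 0.16 (SE 0.05; edgeR, adjusted P = 0.0445). The call was lost on leaving out any of 6 mice for Mars2 and of 14 for Iars2 (adjusted P up to 0.083 and 0.0907), and for both with the title number as a block (0.0586 and 0.0754). None of 10 translation factors passed, with 9 below 0 and a median of -0.05. Without R403Q-CD mice 2 and 5, 6 of 10 were below 0 with a median of -0.02 and Tufm was called lower, and in R403Q-EMPA against WT-EMPA 6 of 10 were below 0 with a median of -0.02. The elongation factors Tufm (-0.20, SE 0.07) and Gfm1 (-0.20, SE 0.08) had an adjusted P of 0.0589 and 0.0833 by edgeR. Without R403Q-CD mouse 2, Tufm differed by -0.17 with an adjusted P of 0.0169. None of 25 assembly factors (18 below 0, median -0.05), of 8 genes of mitochondrial transcription and insertion or of 8 upstream regulators passed, the last including Nrf1, Gabpa, Yy1 and Ppargc1a. The assembly factors' median deviation averaged 0.07 in WT-CD and -0.04 in R403Q-CD, where mouse 2 stood at -0.31. It averaged -0.0020 in WT-EMPA and 0.01 in R403Q-EMPA.

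On the control diet alone 21 of 21 synthetases were below 0 in R403Q-CD, with a median of -0.14 and none past the test, where 47.5% of all genes were below 0. Their median deviation was -0.39 in R403Q-CD mouse 2, -0.20 in mouse 5 and between -0.05 and 0.04 in the other 5 mice. Without mice 2 and 5, 19 of 21 were below 0 with a median of -0.07. Averaged over mice, the synthetases' median deviation was 0.08 in WT-CD and -0.08 in R403Q-CD, and 0.03 in WT-EMPA and -0.0036 in R403Q-EMPA. Averaged over genotypes, the diet comparison called 1 synthetase lower, Lars2 for leucine (-0.45, SE 0.12; edgeR, adjusted P = 0.0434), and 1 gene of the assembly list, Trub2, a pseudouridine synthase known to modify mitochondrial messenger RNAs (-0.18, SE 0.05; edgeR, adjusted P = 0.0458). Lars2 spread widely in WT-CD (153.5 to 277.9 CPM), and both calls were lost on leaving out any of 14 mice. These single calls among 21 and 25 genes stand beside 2.91% of all genes called.

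Cytosolic ribosomal proteins are given for comparison. Over both diets 27 of 78 tested cytosolic genes rose in R403Q hearts and none fell, with a median of 0.25, beside 6.3% of all genes called higher and 4.58% lower. Their median deviation per mouse lay between -0.18 and 0.02 in WT-CD and between -0.05 and 0.33 in R403Q-CD. It lay between -0.44 and 0.18 in WT-EMPA and between -0.0018 and 0.30 in R403Q-EMPA. No alternative fit is given for this list. Complex I subunits had none past the test, 27 of 36 above 0 and a median of 0.07. Fibroblast markers, summed, were at 1490 ± 370 CPM in WT-CD (n = 5), 2559 ± 1589 in R403Q-CD (n = 7), 1480 ± 248 in WT-EMPA (n = 5) and 1987 ± 249 in R403Q-EMPA (n = 4; all SD). Cardiomyocyte markers were at 110105 ± 4145 in WT-CD, 96816 ± 15107 in R403Q-CD, 105139 ± 5418 in WT-EMPA and 96801 ± 6342 in R403Q-EMPA (same n). Myh6, the mutated gene, was the largest part of that sum, at 43239, 32934, 45221 and 34797 CPM in this order. The other cardiomyocyte markers differed between genotypes in both directions on either diet. Macrophage markers were at 119 ± 12.7, 170 ± 35.3, 116 ± 18.2 and 179 ± 21.7 CPM in the same order. The part of these shifts in the genotype differences of the members was not tested.

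Members were also described by transcript length. Over both diets, the 23 members with a principal transcript under 1000 bases had a median of 0.08, with 18 above 0, and the 51 longer ones a median of 0.01, with 29 above 0. Spearman's rho between length and log2 fold change was -0.33 across the 74 members, which are not independent replicates and come from the same libraries. In WT-EMPA against WT-CD rho was 0.08, and the medians were -0.10 and -0.12.

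Many members share their start region with a neighbour. For 21 members a protein-coding gene on the opposite strand pointed away from a start at most 1000 bases upstream, or overlapped the member's start by at most 200 bases, and 19 of these neighbours were tested. Mrpl46 and Mrps11, whose starts overlap by more, are not among them. Over both diets 2 of the 19 passed the genotype test, Hira beside Mrpl40 (0.19, adjusted P = 0.0492) and Mitd1 beside Mrpl30 (0.37, adjusted P = 0.0432), both by edgeR and both higher in R403Q. This share is at the background of 10.9% of all genes. Mrpl40 and Hira started 175 bases apart. Psma2, 75 bases from the start of Mrpl32, differed by 0.13 (adjusted P = 0.126), and Wdfy1, which overlaps the start of Mrpl44 on the other strand, by 0.06 (adjusted P = 0.582), by edgeR.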

How the data were processed

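RNA from the left ventricles of 21 mice was sequenced as poly(A) libraries. Per the labels and the study's methods, the authors aligned paired reads with STAR 2.6.0c to mm10 and counted unique, properly paired, same-strand fragments per Ensembl gene with featureCounts (Subread 1.6.2), mitochondrial genes excluded; reads shared with near-identical copies were therefore not counted. The deposited counts are raw. The deposited log2 values are variance-stabilized by DESeq2 1.32.0 and entered 1 alternative.

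All 4 groups were fitted together in edgeR 4.0.16 (R 4.3.3; quasi-likelihood test, filterByExpr with a minimum count of 10, TMM scaling, Benjamini-Hochberg over 17309 tested genes, threshold 0.05), giving 7 comparisons. CPM use TMM-scaled library sizes. Deviations are of log2 CPM with a prior count of 2. Alternatives were DESeq2 1.42.0, limma 3.58.1 on the deposited log2 values, library size alone, no filter, fewer groups, the number shared by sample titles as a block and leaving out each mouse. A block over all mice and a fit without R403Q-CD mice 2 and 5 were added after seeing the data. In counts simulated for R403Q-CD against WT-CD, the fit recovered 161 of 198 genes changed 2-fold, with 15 unchanged genes called. It recovered 147 for R403Q-EMPA against WT-EMPA (4 unchanged genes called) and 150 for WT-EMPA against WT-CD (7 called). Smaller changes, such as those of the members, and the other comparisons were not simulated. P-values measure the spread between mice. Counting error is largest for Mrpl23, with a mean count of 88.6. The next lowest mean counts were 361.7 for Mrps33, 565.6 for Mrps6, 566.1 for Mrps11 and 574.4 for Mrps12. The part of counting error in the spread between mice was not measured.

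Members and gene lists were chosen with earlier results of these data known, so that no set test was made. Named were members past the threshold in a comparison (or else the 3 with the smallest P), the 3 highest and lowest per length in each subunit, 4 genes linked to cardiomyopathy, Mrps30 and Mrps36, and genes of the other lists past the threshold plus Tufm, Gfm1, Dap3 and Ptcd3. Others named (Mrpl52, genes with non-overlapping groups, the 3 above 0, neighbours of the called members) were chosen after their values were seen. Gene positions are from GENCODE M21 (GRCm38). For 68 of 74 members every exon base was free of other genes on the same strand. Mrpl3, Mrpl33, Mrpl51, Mrps24, Mrps34 (63.0% free) and Mrps6 were the exceptions.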

Additional observations from a re-analysis of the deposited data

Results flagged for a closer look

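In groups of 4 to 7 mice, 9 of 112 sets of values held a mouse far from the rest of its group, where chance gives about 1 in 20, or 5.6. Of the 9, 5 were R403Q-EMPA mouse 1 standing above the other 3 of its group, the mouse that was also high for most members: Mrpl4 at 93.2 CPM (others 78.1 to 78.6), Mrpl40 at 31.4 (28.5 to 28.9), Mrpl32 at 52.3 (40.6 to 41.8), Mrps14 at 57.6 (42.7 to 44.1) and Mrps36 at 54.2 (40.3 to 42.1). The same mouse was lowest for Lars2, at 110.1 CPM (133.6 to 138.2). R403Q-CD mouse 4 was highest for Mrps14, at 59.2 CPM (41.9 to 48.5). WT-CD mouse 2 was lowest for Mrps30, at 49.1 CPM (59.2 to 62.6). WT-EMPA mouse 5 was lowest for Trub2, at 31.0 CPM (36.3 to 37.5).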

How the results depend on the processing

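The number of members called was 0 under every alternative for R403Q-EMPA against WT-EMPA, R403Q-EMPA against R403Q-CD, WT-EMPA against WT-CD, the interaction and the diet average. For R403Q-CD against WT-CD it was 2 by DESeq2 and 0 to 4 on leaving out single mice (4 without R403Q-CD mouse 3). For genotype over both diets it was 8 with library size alone, 1 without the filter, and 0 to 4 on leaving out single mice, with 0 without WT-CD 1, WT-CD 4, WT-EMPA 1 or R403Q-EMPA 3. The cause was not tested. The genotype difference of Mrpl3 turned to 0.0257 with library size alone. That of Mrps30, near 0, turned to -0.0039 by DESeq2, -0.0061 without the filter, -0.0057 by limma and, on leaving out single mice, lay between -0.0249 and 0.0239, and to -0.009 with the block over all mice described next. With the number that several sample titles share (its meaning is not given in the labels) as a replicate block no member was called within either diet, and the medians were -0.08 in control diet and 0.13 in empagliflozin mice. Over all mice, a fit added after seeing the data, the block left 0 members called for genotype and 0 for the interaction. The replicate numbers are in accession order and pair no mice. Mrpl23 had the lowest mean count of the members.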
